A study of Caenorhabditis elegans with 6 samples.

Results

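Whole wild-type N2 Caenorhabditis elegans kept in tartrazine were compared with N2 kept in water. Tartrazine is a synthetic yellow azo dye used as a food colorant. Of 29317 probe sets on the Affymetrix array, the 27055 that carry a gene symbol were all taken, and they were measured on 4 of the study's 6 arrays. The tartrazine group was 2 arrays from N2 animals given 100 µM tartrazine in S medium for 48 h at 20 °C, and the water group was 2 arrays from N2 animals labelled as water-treated. Treatment started with larvae of 16 to 18 h after hatching, and the labels give an age of 3 days and the young adult stage for both groups, with no other allele or agent in either. The remaining 2 arrays came from animals given another colorant, Ponceau Red. Of the fits they entered 1 alternative only, while the deposited signals used throughout come from a table processed over 6 arrays, these included. The labels describe the arrays of a group as independent trials of whole animals, and they do not give the number of animals pooled in a sample. The p-values below therefore measure the spread between 2 trials per group.

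Late larval and adult worms differ in ways that a whole-animal array can show. During each larval stage the epidermis, steered by an oscillating moulting programme and by hedgehog-related proteins, makes a new set of collagens and sheds the old cuticle. After the last moult the hermaphrodite's gonad fills with meiotic cells and oocytes, its intestine makes vitellogenins (yolk proteins), and its epidermis switches to adult collagens such as that of col-19.

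The stage on the labels was set against such markers first. The yolk gene vit-6 read 10.59 and 10.93 log2 in tartrazine, against 1.89 and 2.11 in water. The adult collagen gene col-19 read 6.93 and 7.91 log2 in tartrazine, against 3.19 and 3.20 in water. Both genes were high on each tartrazine array and low on each water array, so that the water arrays lacked adult markers although their labels say young adult. In the other direction mlt-8, a gene named for its requirement in moulting, read 4.04 and 4.67 log2 in tartrazine, against 9.25 and 9.10 in water. A difference in stage and the colorant cannot be told apart in this design, and the part of either in the results below was not tested. Genes of the male-specific neurons were near the array medians everywhere, with pkd-2 at 1.63 and 1.68 log2 in tartrazine and 1.78 and 1.31 in water, and none of the 7 on that list passed the test.

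**Figure D1:**
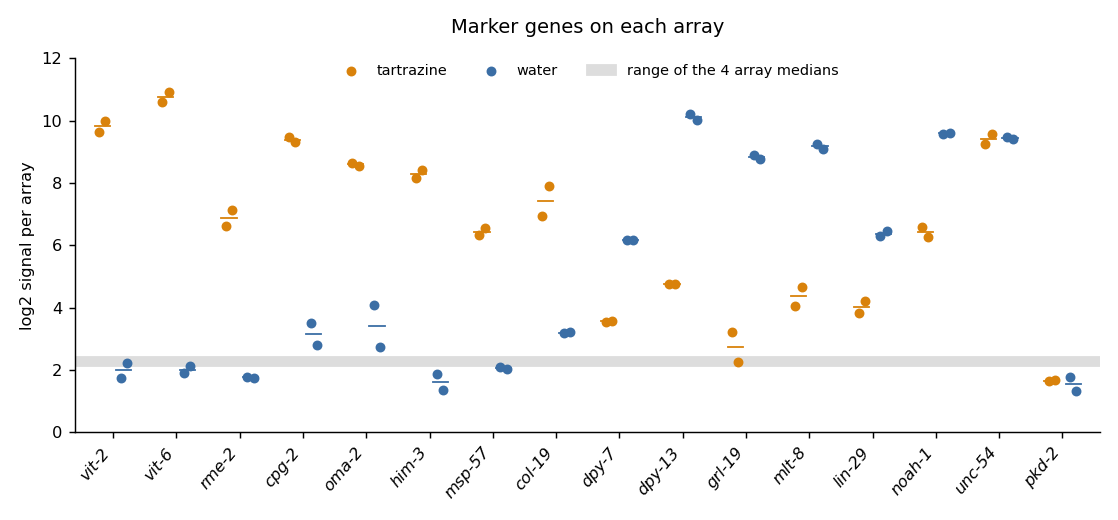
Log2 signal on each array (points) and group mean (bars) for 16 marker genes, with tartrazine in orange left of water in blue; the grey band is the range of the 4 array medians, 2.14 to 2.40. Yolk, eggshell, oocyte, meiotic and sperm genes and col-19 were higher on both tartrazine arrays, collagen, hedgehog-related and moulting genes were higher on both water arrays, and unc-54 and pkd-2 overlapped.

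Signals ran from 0.54 to 11.65 log2, and the array medians were 2.23 and 2.14 in tartrazine and 2.40 and 2.35 in water. The arrays of a group correlated at 0.982 in tartrazine and 0.987 in water, and arrays of different groups at 0.803 to 0.828. The tartrazine arrays were over 2-fold apart in 767 probe sets and the water arrays in 436. The number of arrays limits the precision, with a median 95% interval of 0.47 log2 to either side of a difference.

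In limma, fitted to these 4 arrays with Benjamini-Hochberg adjustment over all 27055 probe sets, 9463 passed at an adjusted p under 0.05, or 35.0%. Of these 4394 rose in tartrazine (16.2%) and 5069 fell (18.7%). Differences of at least 4 log2 made up 490 of the calls, 278 up and 212 down, and 2433 were under 1 log2. The 2 groups did not overlap in 18350 probe sets (67.8%). The median difference over all probe sets was 0.02 log2, and it was 0.21 when each array was centred on its own median, so that small falls and the balance of directions depend on the scale. With arrays so centred 5284 rose and 3849 fell, which is 57.9% rising against 46.4% on the deposited scale. In a fit over all 6 arrays 1083 passed, 129 up and 954 down. The Ponceau Red arrays, whose spread enters that fit, differed from each other by more than 2-fold in 6492 probe sets.

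**Figure D2:**
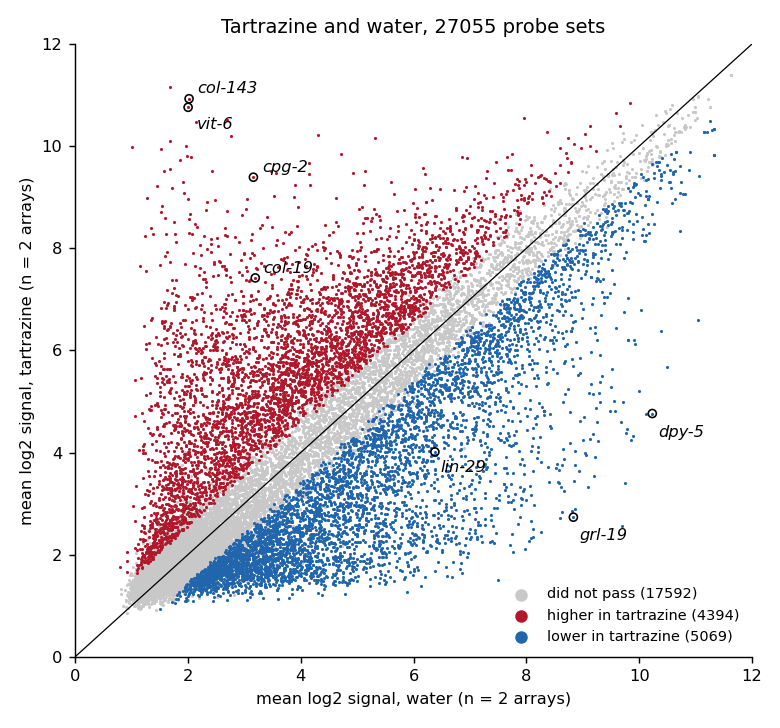
Mean log2 signal of each of the 27055 probe sets in tartrazine (vertical) and water (horizontal), 2 arrays each, coloured by limma call; the line marks equality. The 4394 rises reach vit-6 and col-143 at the top left, and the 5069 falls reach grl-19 and dpy-5 at the lower right.

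The largest rise was that of F57C2.4, which read 11.07 and 11.26 log2 in tartrazine, against 1.61 and 1.78 in water. That is a 712-fold difference, or 9.48 log2 with a standard error (given below after ±) of 0.18 and an adjusted p of 3.07e-05 in limma, n = 2 per group as throughout. Next came Y45F10C.2 at 8.98 log2 and the collagen gene col-143 at 8.91. The 15 largest rises also held 5 of the 6 vitellogenins, vit-2, vit-3, vit-4, vit-5 and vit-6, together with D1054.10, B0513.4, C44B7.5, T04G9.7, ZK813.7, C35B1.4 and F17E9.4. All of them lay near the array medians on both water arrays and above 8.9 log2 on both tartrazine arrays. The table holds no detection call, so a fold against a signal this low is that of the fitted values.

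The largest fall among coding genes was that of C06E7.88, which read 2.25 and 2.88 log2 in tartrazine, against 9.63 and 9.75 in water (difference -7.12 ± 0.25 log2, limma adjusted p = 3.77e-05). Of the 15 largest falls, 6 were numbered collagens (col-114, col-123, col-163, col-44, col-102 and col-45), 3 were hedgehog-related genes (grl-19, grl-3 and grl-17) and 1 was the cuticlin gene cut-1. The remaining 5 were C06E7.88, C35A5.11, K02E11.10, Y48G8AL.16 and the zinc finger gene znf-782. Above 7 log2 on both tartrazine arrays and under 3 on both water arrays were 87 probe sets, 86 of them coding. The opposite pattern held for 25, 21 of them coding.

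All 6 vitellogenins rose, by a median of 7.83 log2, against a median of 0.02 over all probe sets. The smallest of these rises was that of vit-1, which read 8.76 and 9.39 log2 in tartrazine, against 1.96 and 1.91 in water. Their sequences are alike, so that 1 gene's signal can include others. The oocyte receptor that takes up yolk, rme-2, rose by 5.12 ± 0.22 log2, and the other 4 members of the yolk uptake list, which act in endocytosis in many tissues, did not pass. On whole-animal arrays fewer cells of a type and less RNA per cell cannot be told apart, here or in any group below.

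Of 16 genes of the eggshell and egg activation, 15 rose and 1 fell (median 4.67 log2). The eggshell proteoglycan gene cpg-3 read 9.34 and 9.69 log2 in tartrazine, against 2.25 and 2.60 in water, a difference of 7.09 ± 0.22 log2. Another, cpg-2, rose by 6.23 log2, the chitin synthase gene chs-1 by 4.64 and perm-4, which is needed for the permeability barrier, by 6.04. The member that fell was the kinase gene mbk-2, by 0.87 log2 (limma adjusted p = 0.00877), a call lost without either water array (limma adjusted p = 0.0548 and 0.0615). Of 24 RNA-binding genes of oocytes and early embryos, 22 rose, 1 fell and 1 did not pass (median 4.20 log2). The zinc finger gene oma-2, needed for oocyte maturation, read 8.65 and 8.56 log2 in tartrazine, against 4.07 and 2.73 in water. It rose by 5.20 ± 0.42 log2 (limma adjusted p = 0.000257). Its water arrays lay 1.34 log2 apart and both were far below the tartrazine arrays. Rises of 5.91 log2 for pos-1, 5.63 for puf-5, 5.52 for mex-5 and 5.03 for the translational repressor gld-1 were of the same order. The stem cell regulator fbf-2 fell by 0.64 log2 from signals near the array medians (limma adjusted p = 0.0317), and the call was lost without tartrazine array 2 (0.0771), water array 1 (0.211) or water array 2 (0.097).

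Meiotic genes moved together. All 28 genes of the chromosome axis, pairing and recombination rose, by 1.38 to 6.67 log2 with a median of 2.84. The axis gene him-3 read 8.16 and 8.41 log2 in tartrazine, against 1.88 and 1.36 in water. Synaptonemal complex genes syp-3 and syp-1 rose by 4.81 and 3.68 log2, the break-making nuclease gene spo-11 by 4.09 and the meiotic cohesin gene rec-8 by 3.28. Of 24 P granule and Argonaute genes 19 rose, 2 fell and 3 did not pass (median 2.32 log2). Among those that rose were the P granule gene pgl-1 (3.08 log2), the Piwi gene prg-1 (3.69), the germ line Argonaute gene wago-1 (4.93) and glp-1, the Notch receptor of germ line stem cells (2.46). The pair that fell was alg-1 and alg-2, Argonautes that act with microRNAs in somatic cells, by 1.31 and 1.20 log2.

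Cell division and DNA repair genes rose less, and nearly as uniformly. Of 40 genes of mitosis and DNA replication 38 rose (median 1.81 log2) and 0 fell, and mcm-2 and rnr-1, named after their values were seen, did not pass (0.50 and -0.04 log2). Cyclin B gene cyb-1 read 7.72 and 7.32 log2 in tartrazine, against 4.44 and 4.29 in water, and the origin recognition gene orc-1 rose by 3.54 ± 0.19 log2. Of 32 genes of DNA damage and repair 27 rose and 0 fell (median 1.77 log2). The p53 homologue cep-1 read 6.11 and 5.99 log2 in tartrazine, against 2.14 and 2.11 in water. Its groups were far apart, with a difference of 3.93 ± 0.17 log2, while the cell death gene egl-1, a transcriptional target of that protein, differed by 0.30 log2 and did not pass, at an adjusted p of 0.264. The repair genes hus-1, nth-1 and xpa-1 rose by 4.17, 3.82 and 2.95 log2. These genes were high on the same arrays as the meiotic genes, and the share of germ line in the repair signal was not tested.

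Sperm genes were divided. Of 26 major sperm protein genes, which code for the crawling sperm's cytoskeleton, 17 rose and 0 fell (median 1.28 log2). The largest of these rises was that of msp-45, at 6.94 and 6.82 log2 in tartrazine, against 2.62 and 1.86 in water. These genes are near copies of each other, and 11 rose when the second water array was left out. Of 79 genes listed as other sperm genes 27 rose, 6 fell and 46 did not pass, with a median of 0.27 log2. On all 4 arrays 30 of them read under 2.5 log2. Members were taken in part by symbol, and whether each is expressed in sperm was not tested. Of 34 spe genes 7 rose and 1 fell, and the largest falls of the list were those of nspe-4, nspb-1 and nspb-4. The largest rise of the list was that of nspd-10, by 4.76 log2, and spe-11, a sperm-supplied factor of the embryo, rose by 2.28. In contrast fer-1 and spe-9, which act in sperm fusion and fertilisation, differed by -0.29 and 0.21 log2 and did not pass. Of 19 sex determination and dosage compensation genes 7 rose and 0 fell, or 3 rose without water array 1. The hermaphrodite spermatogenesis gene fog-2 rose by 4.83 log2 and fem-3 by 3.76, and the male-promoting gene her-1 was under the array medians on every array and differed by 0.44 log2 (limma adjusted p = 0.114).

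Of 14 genes of transmitter synthesis and transport 2 rose, 4 fell and 8 did not pass (median -0.30 log2), or 2 fell without water array 2. Those that rose code for enzymes of octopamine synthesis, active in a few neurons and in the gonadal sheath. The gene tbh-1 read 8.14 and 7.98 log2 in tartrazine, against 2.32 and 2.11 in water (5.85 ± 0.18 log2), and tdc-1 rose by 3.13 log2. Among those that fell was unc-25, which makes the transmitter GABA, by 1.26 log2. The share that passed in that list was 42.9%, against 35.0% of all probe sets and 41.4% of coding ones. Of 17 genes of the vulva and uterus 1 rose and 4 fell, so that 29.4% passed, under both of those shares. The 1 that rose was the epidermal growth factor gene lin-3, by 2.62 log2. Without water array 1 there were 2 falls, and without tartrazine array 2 there were 2 rises.

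**Figure D3:**
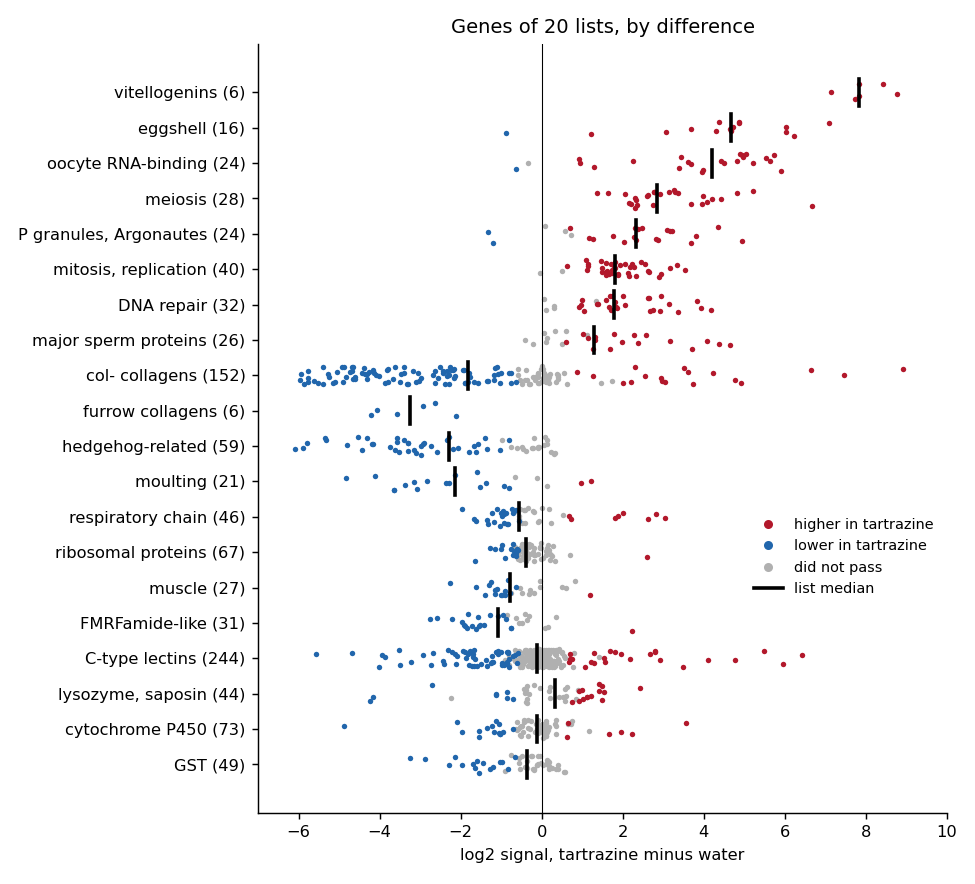
Log2 difference, tartrazine minus water, for the genes (points) of 20 lists, with the number of genes in parentheses; colours give the limma call and black bars the list medians. The 8 lists from vitellogenins to major sperm proteins have medians of 1.28 to 7.83, the 4 from the numbered (col-) collagens to moulting have medians of -3.25 to -1.81, and the numbered collagens hold members at both ends.

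Cuticle collagens fell in most cases. All 6 collagen genes of the annular furrows fell, by a median of 3.25 log2. The furrow collagen gene dpy-3 read 3.20 and 3.59 log2 in tartrazine, against 7.58 and 7.61 in water, and dpy-7 read 3.55 and 3.56 log2 in tartrazine, against 6.18 and 6.18 in water. Of 12 other body shape collagens 8 fell and 0 rose (median -3.73 log2), among them sqt-3 by 4.21 log2, rol-6 by 3.56 and sqt-2 by 4.97. The strut collagen genes bli-1 and bli-2 read under 2.8 log2 on every array and differed by -0.45 and -0.15 log2, which did not pass (limma adjusted p = 0.125 and 0.55).

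Of 152 numbered collagens 93 fell, 18 rose and 41 did not pass, with a median of -1.81 log2. The family split into members read on one group's arrays and members read on the other's. The gene col-123 read 2.90 and 2.82 log2 in tartrazine, against 8.80 and 8.81 in water, a fall of 5.95 ± 0.16 log2. In contrast col-119 read 9.03 and 9.33 log2 in tartrazine, against 1.65 and 1.80 in water, and col-106 read 8.64 and 8.73 log2 in tartrazine, against 2.09 and 1.97 in water. The adult marker col-19 rose by 4.23 ± 0.32 log2 (limma adjusted p = 0.000216). Collagen genes share sequence, so that signals of close relatives can mix. Enzymes that modify and cross-link collagen fell in 10 of 11 cases (median -1.86 log2), among them the prolyl hydroxylase genes dpy-18 (by 2.72 log2) and phy-2 (by 2.04), the dual oxidase gene bli-3 (by 1.88) and its maturation factor gene doxa-1 (by 2.91).

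Hedgehog-related genes, which in nematodes act in the epidermis and its cuticle, fell in 40 of 59 cases and rose in 0 (median -2.28 log2). The gene grl-3 read 2.72 and 2.70 log2 in tartrazine, against 8.44 and 8.74 in water. Falls of 4.53 log2 for grl-21, 3.57 for wrt-10 and 3.31 for qua-1 belong to the same set. Of 27 patched and patched-related genes, which code for membrane proteins like the hedgehog receptor, 18 fell and 0 rose (median -1.20 log2). The largest such fall was that of ptr-18, which read 3.40 and 3.01 log2 in tartrazine, against 7.26 and 7.29 in water.

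Of 21 regulators and effectors of moulting 16 fell, 2 rose and 3 did not pass (median -2.13 log2). The clock gene lin-42, homologue of period, read 3.50 and 3.17 log2 in tartrazine, against 6.95 and 7.02 in water, and fell by 3.65 ± 0.19 log2. The outer matrix genes noah-1 and noah-2 fell by 3.16 and 4.12 log2 and mlt-8 by 4.82. The members that rose were nekl-2 (1.23 log2) and the protease gene nas-37 (0.96 log2), and both calls were lost without water array 1 (limma adjusted p = 0.0514 and 0.0984). The nuclear receptor gene nhr-23, which drives moulting, fell by 0.94 log2 at an adjusted p of 0.00723, or of 0.0556 when water array 1 was left out. Of 8 heterochronic genes, which time larval stages, 6 fell and 0 rose. The transcription factor gene lin-29, needed for the larva-to-adult switch, read 3.83 and 4.20 log2 in tartrazine, against 6.31 and 6.45 in water, while lin-28 differed by 0.34 log2 and did not pass. Cuticlins and other zona pellucida genes fell in 12 of 35 cases and rose in 0, with cut-1 down by 5.63 log2 and cut-5 by 4.80. Among 36 astacin proteases 6 rose and 10 fell (6 without water array 1), and the extremes were nas-20, up by 4.59 log2, and nas-30, down by 4.79. Of 68 abu and pqn genes, several of which belong to the pharyngeal cuticle, 15 fell (22.1%), 5 rose and 48 did not pass. Their median of -0.15 log2 was 0.04 with centred arrays, and 9 rose without tartrazine array 1. The gene abu-13 read 2.64 and 2.44 log2 in tartrazine, against 5.80 and 6.10 in water, and pqn-82 rose by 1.24 log2.

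The fit over 6 arrays and the authors' own table bear on these groups differently. Over 6 arrays 0 of the 6 vitellogenins, 0 of the 28 meiotic, 0 of the 16 eggshell and 0 of the 26 major sperm protein genes passed, while 43 of the 152 numbered collagens and 16 of the 59 hedgehog-related genes fell, with 7678 probe sets at an unadjusted limma p under 0.05 in that fit. The authors' deposited table for tartrazine lists 1746 probe sets with an unadjusted p under 0.05, 1039 with a ratio over 1 and 707 under 1. Its sums of squares and degrees of freedom fit groups of 3 and 2 arrays, so that 1 array beyond the 4 used here entered it, and the table alone does not tell in which group. Of the 1612 listed probe sets that were tested here, 1267 passed here (78.6%), all in the same direction, and they are 13.4% of the 9463. On that reading the authors' deposited table shares arrays with this fit. Neither the common direction nor any ratio quoted from it is therefore an independent check. The authors' deposited table lists 0 of the vitellogenin, eggshell, meiotic, mitosis, DNA repair and major sperm protein genes, and 0 of the 15 largest rises. It lists 20 of the 152 numbered collagens and 9 of the 59 hedgehog-related genes, all lower in tartrazine.

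The genes with the largest differences here among those that the authors' deposited table lists were found after their values were seen. C08F11.12 was higher by 6.50 ± 0.26 log2 here, with groups far apart, and had a ratio of 38.4 in the authors' deposited table. The collagen gene col-73 read 4.86 and 3.62 log2 in tartrazine, against 10.01 and 9.70 in water (-5.62 ± 0.40 log2), and was 38.1-fold lower in the authors' deposited table. Other large differences in both were rises of C33G8.2, Y54G2A.49, drd-10 and ins-7 and falls of dpy-5, dpy-13, dbd-13, col-161 and wrt-4.

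Genes that handle foreign compounds moved in both directions, with shares to be read against 16.2% rising and 18.7% falling over all probe sets. Among coding probe sets, to which these families belong, the shares were 22.0% and 19.4%. Of 73 cytochrome P450 genes 6 rose (8.22%), 15 fell (20.5%) and 52 did not pass, with a median of -0.11 log2 that turned to 0.08 with arrays centred on their medians. The gene cyp-35B1 read 3.54 and 3.99 log2 in tartrazine, against 8.47 and 8.80 in water, a fall of 4.87 ± 0.23 log2. The often xenobiotic-induced cyp-35A2 differed by 0.01 log2 with groups that overlapped (limma adjusted p = 0.987), and cyp-14A3 by -0.42 (limma adjusted p = 0.123). The largest rise was that of cyp-31A3, by 3.56 log2, an enzyme needed for the eggshell's lipid layer. Without the second water array 7 P450 genes fell, and without the first tartrazine array 10 rose. Of 67 UDP-glucuronosyltransferases, which attach sugars to small molecules, 10 rose (14.9%) and 9 fell (13.4%), and their median of -0.03 log2 was 0.17 with centred arrays. Their counts were 4 to 12 rising and 4 to 12 falling over the fits that leave out an array. The gene ugt-3 read 7.22 and 7.23 log2 in tartrazine, against 3.74 and 3.24 in water, and rose by 3.73 ± 0.22 log2. Of 49 glutathione S-transferases 16 fell (32.7%) and 0 rose (median -0.36 log2), led by gst-39 (by 3.24 log2) and gst-3 (by 2.88). The oxidative stress reporter gst-4 differed by -0.50 log2 and did not pass, at an adjusted p of 0.116. Of 30 short-chain dehydrogenases 4 rose and 11 fell (7 and 6 falls without water arrays 1 and 2), with dhs-11 up by 3.05 log2 and dhs-5 down by 2.24. Of 44 ABC transporters 4 rose and 9 fell (0 rises without water array 1), with haf-4 down by 2.58 log2 and pgp-1 by 1.85.

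Antioxidant and chaperone genes differed by list. Of 16 superoxide dismutases, catalases and related genes 7 fell and 1 rose, or 3 fell without water array 1. The mitochondrial superoxide dismutase gene sod-3 read 3.67 and 3.26 log2 in tartrazine, against 7.02 and 7.05 in water, and the catalase genes ctl-1 and ctl-2 fell by 1.40 and 1.29 log2. The small heat shock gene hsp-16.2 read 4.36 and 5.19 log2 in tartrazine, against 2.17 and 2.62 in water. Both tartrazine arrays were higher, and the gene rose by 2.38 ± 0.32 log2 (5.21-fold; limma adjusted p = 0.00181), with a ratio of 4.15 in the authors' deposited table. Of 13 small heat shock genes hsp-16.2 and hsp-43 (1.65 log2) rose, hsp-12.1 and hsp-12.3 fell by 2.18 and 2.07, and 9 did not pass, among them hsp-16.41 at 0.07 log2. Of 8 cytosolic chaperone genes hsf-1, the heat shock transcription factor, rose by 0.68 log2 and 7 did not pass, and that call was lost without any 1 of the 4 arrays. Of 14 chaperones and stress regulators of the endoplasmic reticulum and mitochondria 7 fell and 1 rose (median -0.47 log2), or 3 fell without water array 2. The chaperone gene hsp-3 fell by 1.27 log2 and atf-6, a stress regulator of the endoplasmic reticulum, by 1.18. In the same list the reporters of the unfolded protein responses, hsp-4 of the endoplasmic reticulum and hsp-6 of mitochondria, differed by -0.25 and -0.31 log2 (limma adjusted p = 0.338 and 0.266), neither of which passed. Of 14 metal response genes 4 fell and 1 rose (2 falls without water array 2), with cdr-4 down by 3.13 log2 and the metallothionein gene mtl-2 at -0.33, which did not pass. The share that passed in the metal list was 35.7%, against 35.0% of all probe sets and 41.4% of coding ones. Small heat shock genes and cytosolic chaperones lay under both of those background shares. The superoxide dismutase list and the chaperones of the endoplasmic reticulum and mitochondria lay above both.

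Immune effector families moved both ways, to be read against 16.2% rising and 18.7% falling over all probe sets. Of 244 C-type lectins 24 rose (9.84%), 58 fell (23.8%) and 162 did not pass (median -0.11 log2, or 0.08 with centred arrays). The share that passed was 33.6% for lectins and 35.7% for fungus-induced peptides and immune reporters. It was 35.0% over all probe sets and 41.4% over coding ones. At one end clec-222 read 8.61 and 8.88 log2 in tartrazine, against 2.43 and 2.23 in water, and at the other clec-82 read 4.46 and 4.19 log2 in tartrazine, against 9.88 and 9.89 in water. The infection-responsive gene clec-60 fell by 4.01 log2. Lysozymes and saposin-like proteins, which attack bacterial walls and membranes, rose in 14 of 44 cases and fell in 8 (median 0.32 log2). Leaving out either water array gave 9 rises each, and leaving out the first gave 4 falls. The gene spp-4 read 9.22 and 9.07 log2 in tartrazine, against 6.79 and 6.63 in water, and rose by 2.43 ± 0.18 log2, and ilys-3 and lys-7 rose by 1.48 and 1.11, while spp-30 fell by 4.23. Of these 44 genes the authors' deposited table lists 11, all higher in tartrazine. Among 21 antimicrobial nlp and cnc peptides 3 rose and 10 fell. The gene cnc-7 rose by 5.14 log2 and cnc-2 by 1.73, and the epidermal wound and infection marker nlp-29 differed by -0.73 (limma adjusted p = 0.132). Of 56 fungus-induced peptides and immune reporters 8 rose and 12 fell (4 rises without water array 1, 8 falls without water array 2). The gene fipr-13 read 4.52 and 6.18 log2 in tartrazine, against 1.22 and 1.68 in water, and rose by 3.90 ± 0.52 log2, while the infection reporter irg-1 fell by 2.12.

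Somatic tissue markers fell moderately. Of 9 intestine markers 7 fell and 0 rose (median -0.98 log2). The intestinal transcription factor gene elt-2 read 5.51 and 5.23 log2 in tartrazine, against 7.19 and 7.60 in water, and the microvillar actin gene act-5 fell by 1.51 log2. The number of intestine markers that fell was 4 without tartrazine array 1, 4 without water array 1, 3 without water array 2 and 4 with centred arrays. Of 27 cathepsin-like and aspartyl proteases, many of them intestinal, 8 fell and 3 rose (median -0.17 log2, or 0.02 with centred arrays), or 2 rose without tartrazine array 2 or either water array. The gene asp-12 read 8.08 and 8.44 log2 in tartrazine, against 2.71 and 2.60 in water, and asp-16 fell by 4.56 log2. Of 12 epidermis markers 8 fell and 1 rose (5 falls without water array 2), among them lin-26 by 1.16 log2 and elt-1 by 1.34. Of 27 contractile muscle genes 15 fell and 1 rose (median -0.79 log2), or 8 and 2 without the second water array. The body wall myosin gene unc-54 read 9.24 and 9.58 log2 in tartrazine and 9.46 and 9.42 in water, with groups that overlapped, whereas the myosin light chain gene mlc-1 fell by 2.28 log2 and the troponin gene tni-3 rose by 1.19.

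Neuropeptide genes fell in most cases. Of 31 FMRFamide-like peptide genes 20 fell (64.5%) and 1 rose (median -1.09 log2). Among 78 other neuropeptide-like genes 44 fell (56.4%) and 4 rose (median -0.84 log2). Those 78 were taken by the nlp symbol and are not all neuronal. They include members of the antimicrobial peptide list above, such as nlp-28 and nlp-34, which are counted in both places. The gene flp-7 read 4.54 and 4.40 log2 in tartrazine, against 7.21 and 6.90 in water. The peptide gene nlp-12, made in the tail neuron DVA, fell by 2.44 log2, and flp-6 was the 1 FMRFamide-like gene that rose, by 2.22. Enzymes that process peptide precursors fell as well, egl-3 by 1.55 log2 and egl-21 by 1.91. Of 19 pan-neuronal and synaptic genes 9 fell and 0 rose (5 without the second water array). The vesicle gene rab-3 fell by 1.31 log2, and snb-1 and unc-119 differed by -0.18 and 0.79 log2 and did not pass. Among 54 genes of ciliated neurons 9 fell (16.7%) and 1 rose, and the cilium gene osm-6 differed by -0.12 log2 (limma adjusted p = 0.786). That share of falls was below the 18.7% of all probe sets and the 19.4% of coding ones. No test compared the peptide genes with the other neuronal genes.

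Endocrine genes included large changes in both directions. Of 40 insulin-like peptides 3 rose and 11 fell. The share that passed was 35.0% for these peptides, 35.0% over all probe sets and 41.4% over coding ones. For the lists that follow it was 41.7% (insulin receptor to DAF-16) and 53.3% (TGF-beta). The gene ins-7, which codes for an activating ligand of the insulin receptor, read 6.56 and 5.54 log2 in tartrazine, against 2.01 and 2.08 in water. It rose by 4.01 ± 0.33 log2 (limma adjusted p = 0.000294), and ins-23 and ins-10 by 4.90 and 2.38. The gene ins-35 fell by 4.72 log2, ins-33 by 4.18 and the dauer-inhibiting ligand gene daf-28 by 2.01. Of 12 genes from the insulin receptor to DAF-16 4 rose and 1 fell, or 2 rose without tartrazine array 2 or water array 1. The receptor gene daf-2 rose by 1.32 log2 and the lipid phosphatase gene daf-18 by 3.45, and daf-16 differed by -0.55 (limma adjusted p = 0.096). In the DAF-7 and body size branches of TGF-beta signalling 8 of 15 genes fell and 0 rose (4 falls without water array 2), among them the ligand genes daf-7 (by 2.31 log2) and dbl-1 (by 1.15) and the body size effector lon-1 (by 1.09).

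Energy metabolism fell in parts, and related genes of one enzyme went opposite ways. Of 22 genes of glycolysis and the glyoxylate cycle 13 fell and 3 rose (median -0.77 log2), or 8 falls without either water array. Glyceraldehyde-3-phosphate dehydrogenase has 4 genes here. The gene gpd-1 read 8.41 and 8.63 log2 in tartrazine, against 4.95 and 4.31 in water, and gpd-2 read 7.24 and 7.54 log2 in tartrazine, against 9.40 and 9.14 in water. Thus gpd-1 and gpd-4 rose by 3.89 and 2.51 log2 while gpd-2 and gpd-3 fell by 1.88 and 1.81. Because such copies share sequence, a probe set can pick up more than its own gene. Of 46 respiratory chain genes 21 fell and 8 rose (median -0.57 log2), or 10 and 12 falls without water arrays 1 and 2. The complex II gene sdha-2 rose by 2.83 log2 and sdha-1 fell by 1.63, and the complex III genes ucr-2.3 and ucr-2.2 differed by 3.04 and -1.68 log2. The complex I gene gas-1 fell by 1.97 log2 and isp-1 of complex III by 1.03.

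**Figure D4:**
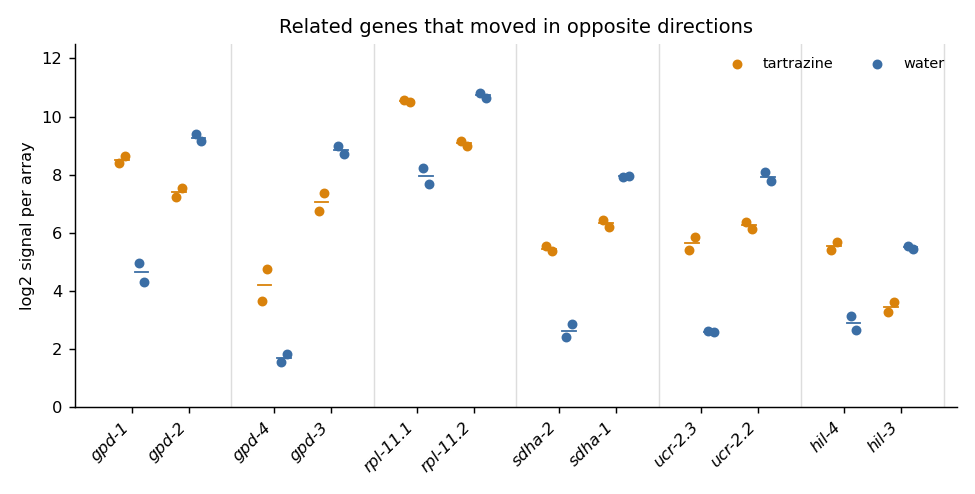
Log2 signal on each array (points) and group mean (bars) for 6 pairs of related genes, with tartrazine in orange left of water in blue. In each pair the left gene was higher on both tartrazine arrays and the right gene was higher on both water arrays.

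Lipid genes fell mostly outside the desaturases. Of 62 genes of fat breakdown and transport 29 fell and 7 rose (median -0.68 log2). That list is not limited to breakdown and transport, since it also holds fasn-1, a gene of fatty acid synthesis. The number that fell was 18 and 16 without water arrays 1 and 2 and 18 with centred arrays. The fatty acid synthase gene fasn-1 read 6.71 and 6.60 log2 in tartrazine, against 7.98 and 8.32 in water, and the acyl-CoA synthetase gene acs-2 fell by 1.72 log2. Among 16 desaturases and elongases fat-5 and elo-4 fell by 1.57 and 4.66 log2 and 14 did not pass, among them fat-7 at 0.21 log2 with groups that overlapped (limma adjusted p = 0.734).

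Of 67 cytosolic ribosomal protein genes 14 fell (20.9%, near the 19.4% of coding probe sets), 1 rose and 52 did not pass (median -0.39 log2). The number that fell was 4 to 11 over the fits that leave out an array and 6 with centred arrays. The pair rpl-11.1 and rpl-11.2 was split, with rpl-11.1 at 10.58 and 10.51 log2 in tartrazine, against 8.21 and 7.69 in water, and rpl-11.2 down by 1.65 log2. The authors' deposited table lists 23 of these 67 genes, all lower in tartrazine. Of 14 genes of the nucleolus and ribosome biogenesis 8 rose and 1 fell, with rrp-8 up by 1.87 log2, the polymerase I gene rpoa-2 by 1.71 and nucl-1 by 1.47. The gene that fell was ncl-1, a repressor of ribosome production, by 1.42 log2. Of 48 spliceosome and nuclear pore genes 23 rose and 0 fell (median 0.71 log2), led by npp-22 at 2.28. Among 50 histone genes 10 rose and 18 fell, or 9 fell without water array 1. The histone H3 gene his-74 read 7.74 and 7.72 log2 in tartrazine, against 3.15 and 2.00 in water, and the linker histone genes hil-4 and hil-3 differed by 2.66 and -2.06 log2. Of 33 proteasome subunits 5 fell (15.2%, under the 19.4% of coding probe sets) and 1 rose, which was rpn-6.2, by 2.21 log2.

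The acid pump of organelles, the V-ATPase, had 10 of 20 genes falling and 2 rising (median -0.54 log2), or 4 and 3 falls without water arrays 1 and 2. The rise of vha-18 was the largest, from readings of 6.28 and 6.68 log2 in tartrazine, against 1.07 and 1.36 in water.

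Large receptor and adaptor families differed in how many members passed, against 35.0% of all probe sets. Of 1320 chemoreceptor genes 8 rose, 1193 did not pass and the others fell, so that 9.62% passed, and their median signal lay under the array medians in both groups. Without water array 1 there were 57 falls, and without tartrazine array 2 there were 21 rises. The gene srr-6 read 2.87 and 2.53 log2 in tartrazine, against 7.08 and 7.46 in water, and odr-10, the diacetyl receptor, fell by 1.81 log2. Of 278 nuclear hormone receptors 18 rose and 45 fell (6 and 23 without water array 1), with nhr-3 down by 3.61 log2 and nhr-161 up by 2.34. F-box genes were balanced in total, with 38 of 341 rising and 35 falling. Split by symbol after the values were seen, 28 of 168 fbxa genes rose (16.7%) and 15 fell (8.93%). For 42 fbxc genes there were 6 rises (14.3%) and 1 fall (2.38%), and for 104 fbxb genes 2 rises (1.92%) and 14 falls (13.5%). All these F-box shares were under the 22.0% rising and 19.4% falling of coding probe sets. Of 82 MATH and BATH domain genes 26 rose (31.7%) and 5 fell, with bath-15 up by 4.25 log2 and bath-46 down by 2.47. Their products, like F-box proteins, link substrates to ubiquitin ligases. By the same split 21 of 35 bath genes rose (60.0%) and 3 fell, against 2 rises (5.56%) and 2 falls among 36 math genes.

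Calls were spread unevenly over the genome, with chromosomes taken from RefSeq. Of coding probe sets 22.0% rose and 19.4% fell. On chromosome X 10.9% of 2659 rose and 29.5% fell, while on chromosome I 32.8% of 2811 rose and 15.2% fell, and chromosome III was close to I with 31.5% and 17.4%. Genes active in the hermaphrodite germ line are known to be scarce on X. On chromosome V, which holds most chemoreceptor families, 14.5% rose and 19.7% fell.

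**Figure D5:**
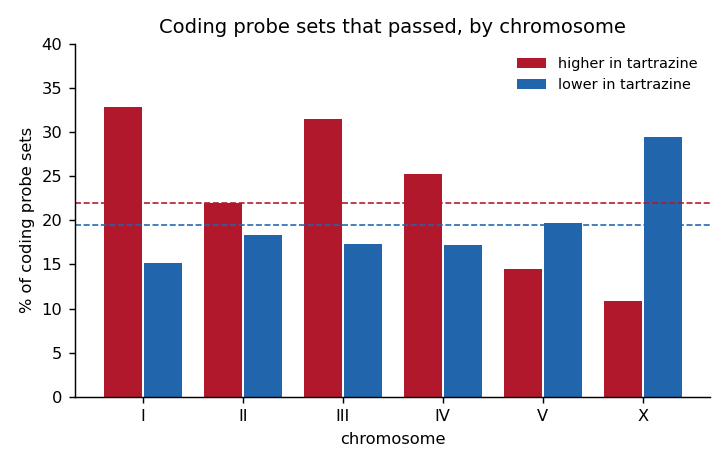
Percent of coding probe sets on each chromosome that were higher (red, left) or lower (blue, right) in tartrazine than in water; dashed lines give the shares over all coding probe sets, 22.0% and 19.4%. Rises outnumber falls on chromosomes I to IV, and falls outnumber rises on V and most on X.

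Non-coding probe sets rarely rose. Of 6814 loci annotated as non-coding RNA 59 rose (0.866%) and 1187 fell (17.4%), against 16.2% and 18.7% of all probe sets, and their median signal was 1.65 log2 in tartrazine and 1.69 in water. The locus T04D3.9, named after its values were seen, read 1.34 and 1.65 log2 in tartrazine, against 7.56 and 7.44 in water. Of 16 ribosomal RNA probe sets 14 fell and 0 rose (median -3.51 log2), and most are copies of the 5S gene with shared values, such as rrn-4.1, also named after its values were seen, at 4.51 and 5.10 log2 in tartrazine, against 8.18 and 8.45 in water. Among 8 microRNA loci mir-58.1 fell by 2.71 log2, and mir-37 and mir-39 of the embryonic mir-35 family differed by 0.02 and 0.49 log2 and did not pass.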

How the data were processed

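Whole-worm RNA (3.5 ng of total RNA a sample) was turned into biotin-labelled cDNA and hybridised to Affymetrix arrays. The authors' deposited values are log2 signals, 1 per probe set. Per the submitters' processing notes they come from RMA, and the table covers 6 arrays. RMA version and genome build: not given in the sources used here. Columns were matched to trials by their names, and a second number in 2 names was not read. A second deposited table, the series matrix, served as an alternative. Per the file headers, the authors' deposited tartrazine table holds a linear ratio, a p-value and sums of squares, read here as score. Of 27055 probe sets 23508 were named by accession and 3302 by symbol from RefSeq (assembly WBcel235), and 245 kept the deposited symbol.

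From these log2 values limma 3.58.1 in R 4.3.3 (lmFit, eBayes, two-sided, 2 residual and 4.11 prior degrees of freedom) was fitted to the 2 tartrazine and 2 water arrays, without a filter on low signal or a replicate block. A gene with several probe sets is described by 1 of them. The genes named are coding and are the 15 largest changes per direction with groups that did not overlap, the key members of each of 68 gene lists and up to 3 of its largest changes per direction, with microRNA loci of the lists; others are marked as named after their values were seen. The comparison and the lists, written from textbook knowledge, were chosen with earlier results of these data known. Lists were given no test of their own. Alternatives were other scalings, priors, filters and tables, all 6 arrays, a block and each array left out.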

Additional observations from a re-analysis of the deposited data

Results flagged for a closer look

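Outside the comparison, of 2262 probe sets without a gene symbol 268 were higher in tartrazine than in water and 482 were lower when limma was fitted to the 4 arrays with all 29317 probe sets (adjusted p under 0.05). They were set apart because a signal appears in data that no comparison above uses.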

How the results depend on the processing

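The count of 9463 passing probe sets (4394 rising, 5069 falling) moved by over 1.5 times in 2 fits. Over all 6 arrays it was 1083 (129 rising, 954 falling), and against a minimum change of 1 log2 it was 3484 (1827 and 1657). The uncentred series matrix gave 8234 falls, 3518 rises (29.9% of calls) and a median difference of -0.23 log2; centred, an alternative chosen after seeing the data, it gave 5855 rises and 4695 falls. Without 1 array the counts ran from 7015 to 9445 (3233 to 4574 rising, 3782 to 4946 falling), lowest without the first water array. Trial numbers are shared between groups, but their deviations correlated at 0.162 only, and a replicate block gave 10243, with 9361 of the 9463 calls kept. Many of the 380 named genes that passed were chosen for large differences, so that they do not stand for all calls. Of them 44 passed in the same direction over all 6 arrays, and 256 against a minimum change of 1 log2. The 1 reversal was hxk-1, which rose by 0.81 log2 and was -0.13 in the series matrix values (limma adjusted p = 0.59); the cause was not tested. Counts of falls among ribosomal proteins, respiratory chain, V-ATPase, lipid and intestine genes moved by over 1.5 times without a water array, as given above. Signals near the array medians carry no detection call, which limits the size of the largest differences.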

Other observations

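Gene classes defined by their symbols, looked at after the values were seen, add to the groups above, with 22.0% of coding probe sets rising and 19.4% falling. Of 17 taf genes, which code for subunits of the general transcription factor TFIID, 15 rose and 0 fell, with a median of 1.24 log2, and of 20 Mediator subunit genes (mdt) 15 rose and 0 fell, with a median of 1.54 log2. Of the mitochondrial ribosomal protein genes 21 of 29 mrps genes and 26 of 42 mrpl genes rose and 1 of each fell. Among classes with falls 13 of 19 dbd genes and 40 of 84 nssp genes fell.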
